A study of Mus musculus with 14 samples.

Results

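Ctla4, Icos, Pdcd1, Lilr4b and Cd274 were examined as 5 members of the immune checkpoint system in natural killer (NK) cells. They were chosen by name from the 10210 genes of the NK count table, with earlier results of these data known. All 5 were among the 8471 genes that passed the filter on low counts. For Ctla4, Icos and Pdcd1 the spleen libraries alone would not have met it, so these genes were tested only because of their tumour counts. Cd274 was also read in a separate table of 12235 genes from stromal cells of the same tumour model. CTLA-4 and PD-1 are inhibitory receptors, ICOS is a costimulatory receptor of the same CD28 family, and PD-L1, the product of Cd274, is the ligand of PD-1. Lilr4b encodes gp49A, a membrane receptor whose closely related neighbour Lilrb4a encodes gp49B, an inhibitory receptor with cytoplasmic inhibitory tyrosine motifs. By that background the name checkpoint fits Lilrb4a better than Lilr4b, so Lilrb4a is given beside it throughout.

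The cells came from BALB/c mice that were 8 weeks old. The NK libraries formed 3 groups: spleens of healthy mice (3 libraries), spleens of mice bearing 4T1-GFP mammary tumours (4) and those tumours themselves (4). Tumours grew after 100000 4T1-GFP cells, a GFP-tagged BALB/c mammary carcinoma line, had been placed in the lower left mammary fat pad. Magnetic enrichment was followed by a sort for CD45+ NKp46+ cells that lacked GFP, EPCAM, CD3, CD31 and CD14. The stromal group, sCAF in the labels, held 3 libraries of cells from the tumours that lacked CD31, CD45, PDPN, GFP and EPCAM in the sort. Both spleen groups are named as controls in the series text, which calls the replicates of each group independent. Tumours were digested with collagenase A (3 mg/ml) and DNase (70 units/ml) for 20 min at 37 °C, whereas spleens were crushed and kept on ice for red cell lysis. Tissue and digestion therefore cannot be told apart in any comparison of tumour with spleen. The labels do not give the time from injection to collection, or whether a library came from a single mouse.

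Receptors of the CD28 family set how strongly a lymphocyte answers its activating signal. CD28 and ICOS add to that signal, mainly through phosphoinositide 3-kinase, whereas CTLA-4 takes the ligands CD80 and CD86 from CD28 and PD-1 recruits the phosphatase SHP-2. CTLA-4, ICOS and PD-1 are low on resting lymphocytes and appear after activation, whereas resting T cells already carry CD28. PD-L1 is known as a target of interferon-gamma signalling. The receptors are best known in T cells, and were measured here in NK cells.

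The start-proximal sequences of the members are shown because the genes moved together in the tumour libraries, and the factors known to induce them (NFAT, AP-1, NF-kB, IRF and STAT proteins) bind short motifs. RefSeq promoters on GRCm38.p6, the assembly of the mm10 build, were at hand for Ctla4, Pdcd1, Lilr4b and Cd274, 4 of the 5 members. Each sequence is the 250 bases before the listed start, 5′ to 3′ on the gene's strand, and capitals mark matches to the NFAT core GGAAA, read on either strand, or to the STAT motif TTCNNNGAA.
Ctla4 (chr1:60908775-60909024, plus strand): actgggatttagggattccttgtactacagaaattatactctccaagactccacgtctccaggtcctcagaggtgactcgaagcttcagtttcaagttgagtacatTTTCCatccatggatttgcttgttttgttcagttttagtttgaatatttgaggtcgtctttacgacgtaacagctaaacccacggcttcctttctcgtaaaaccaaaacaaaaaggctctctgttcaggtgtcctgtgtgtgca
Pdcd1 (chr1:94052554-94052803, minus strand): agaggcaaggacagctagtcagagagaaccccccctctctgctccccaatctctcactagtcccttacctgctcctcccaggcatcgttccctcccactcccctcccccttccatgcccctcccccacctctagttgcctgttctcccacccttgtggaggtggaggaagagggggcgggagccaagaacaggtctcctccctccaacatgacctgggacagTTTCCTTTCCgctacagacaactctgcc
Lilr4b (chr10:51480362-51480611, plus strand): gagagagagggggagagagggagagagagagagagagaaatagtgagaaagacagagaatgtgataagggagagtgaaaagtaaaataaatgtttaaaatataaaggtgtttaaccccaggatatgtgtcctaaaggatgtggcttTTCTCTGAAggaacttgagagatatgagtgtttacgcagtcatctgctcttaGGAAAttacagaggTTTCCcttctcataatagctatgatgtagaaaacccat
Cd274 (chr19:29367188-29367437, plus strand, inside the annotated span of the gene): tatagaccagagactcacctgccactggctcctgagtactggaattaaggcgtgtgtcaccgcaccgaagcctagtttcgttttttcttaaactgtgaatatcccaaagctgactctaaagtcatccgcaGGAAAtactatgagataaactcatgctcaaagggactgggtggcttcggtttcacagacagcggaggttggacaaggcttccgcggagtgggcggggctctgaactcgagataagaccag
Over 300 bases, from 250 before to 50 after the start, both strands were searched. GGAAA was found in all 4 promoters, and also in 61.3% of the 32851 promoters of the table. In Pdcd1 its matches lay 28 and 23 bases before the start, in Ctla4 144 bases before it. The STAT motif was found in Lilr4b alone of the 4, 104 bases before its start, against 8.3% of all promoters. A loose NF-kB consensus was also found in Lilr4b alone, after the start and so outside the letters shown, against 50.8% of all promoters. The AP-1 motif TGANTCA (7.81% of promoters) and an IRF consensus (3.44%) matched none of the 4 windows. A second GGAAA in Cd274 spanned its start. These matches describe letters in a window and are not measured binding sites.

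The 11 NK libraries held between 559688 and 1966963 counts in listed genes, so the 3 counts that a count of 0 allows equalled 1.525 to 5.36 CPM (counts per 1e6). Levels below are CPM on library sizes scaled by trimmed mean of M-values (TMM), and intervals and floors cover counting error only. All 14 NK markers fixed for the gate were listed. On library totals they summed to 31160 to 34230 CPM in healthy spleens, 29620 to 33010 in tumour-bearing spleens and 22970 to 26220 in tumours. The second principal component set healthy spleen replicate 1 and tumour-bearing spleen replicates 1 and 2 apart from the other 4 spleen libraries. That split is not named in the labels. Since these are bulk samples, fewer cells that carry a transcript and less transcript per cell cannot be told apart.

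All 5 members were higher in tumour NK cells than in either spleen group, and no tumour library overlapped a spleen library for any of them. With edgeR's quasi-likelihood test at an adjusted p under 0.05, all 5 were called higher in tumour than in tumour-bearing spleen, where 15.8% of all genes tested were called higher and 13.2% lower. Against healthy spleen all 5 were again called higher, where 16.5% of genes were and 14.0% were called lower. Higher CPM without overlap was found for 16.5% of all genes against tumour-bearing spleen and for 18.5% against healthy spleen. Since Ctla4, Icos and Pdcd1 passed the filter only through their tumour counts, these shares do not measure how unusual their calls are. All 5 were chosen with earlier results of these data known, so neither these calls nor the permutation test below is independent of that choice. The exact two-sided permutation test of mean CPM gave p = 0.0286 for each member in both comparisons, the smallest value that either design allows. The tumour libraries are shared by both comparisons, so the second is not a separate replication of the first. Between the spleen groups none of the 5 was called by edgeR, where 1.58% of all genes were called and 1.23% called higher. Of the members only Lilr4b had an unadjusted p under 0.05 there.

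**Figure D1:**
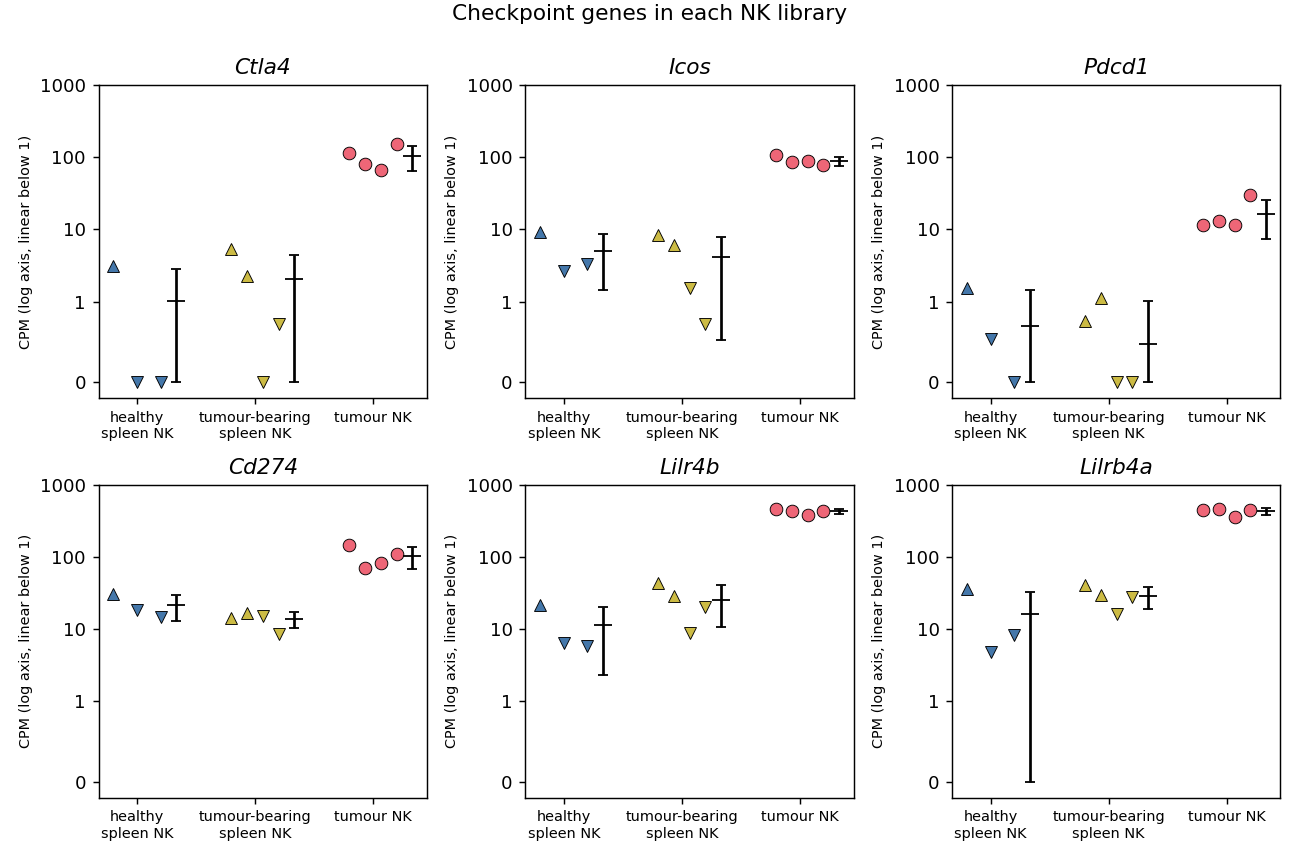
CPM of the 5 members and Lilrb4a in each NK library, on a log axis that is linear below 1. Each symbol is a library, with triangles pointing up for the spleen libraries set apart by the second principal component and down for the other spleen libraries, and bars give the mean and SD, cut at 0. All 4 tumour libraries lie above every spleen library in each panel.

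CTLA-4 competes with CD28 for the B7 ligands and so limits costimulation. In tumour NK libraries 1 to 4 Ctla4 stood at 115.6, 81.15, 65.54 and 154 CPM, from 141, 56, 109 and 162 counts. In tumour-bearing spleens it stood at 5.336, 2.233, 0 and 0.7232 CPM, from 7, 4, 0 and 1 counts. Healthy spleen replicate 1 had 2 counts (3.082 CPM) and the other two had none. Most spleen libraries were thus at or under the detection floor, and the lowest tumour library was far above the highest spleen library. The tumour mean was 104.1 ± 39.3 CPM (SD, n = 4) against 2.073 ± 2.37 (SD, n = 4) in tumour-bearing spleens and 1.027 ± 1.78 (SD, n = 3) in healthy spleens. Tumour exceeded tumour-bearing spleen by 5.72 on the log2 scale (SE 0.566, edgeR adjusted p = 1.42e-05). The ratio of pooled counts was 54.2, with a 95% counting interval of 30.7 to 106. Against healthy spleen, with 2 counts in all, the pooled ratio was 189 (interval 51.9 to 1560, edgeR adjusted p = 3.92e-05). The size of the difference depended on the few spleen counts, its direction did not. Without tumour-bearing spleen replicate 1 the log2 difference was 6.57, and it was 4.82 against tumour-bearing spleen replicates 1 and 2 alone and 8.01 against replicates 3 and 4 alone. The fitted log2 difference from healthy spleen was 7.35, moving to 10.18 without healthy replicate 1 and 6.45 without healthy replicate 2. At these depths no difference in Ctla4 between the spleen groups was detectable.

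ICOS is the inducible costimulator, which binds ICOS ligand and signals through phosphoinositide 3-kinase. Icos stood at 106.6, 85.5, 87.18 and 77.01 CPM in tumour libraries 1 to 4. It stood at 8.384, 6.14, 1.544 and 0.7232 CPM in tumour-bearing spleens and at 9.246, 2.675 and 3.301 CPM in healthy spleens. The tumour libraries lay close together and the spleen groups overlapped fully. Means were 89.07 ± 12.5 CPM in tumour (SD, n = 4), 4.198 ± 3.67 in tumour-bearing spleen (SD, n = 4) and 5.074 ± 3.63 in healthy spleen (SD, n = 3). Tumour was 4.42 higher on the log2 scale than tumour-bearing spleen (SE 0.368, 21.5-fold, edgeR adjusted p = 1.41e-07). It was 4.40 higher than healthy spleen (SE 0.441, 21.1-fold, edgeR adjusted p = 1.31e-06). Between the spleens the log2 difference was -0.02 (SE 0.643, edgeR adjusted p = 0.998). Against tumour-bearing spleen replicates 1 and 2 alone the tumour difference was 3.63, and against replicates 3 and 4 alone it was 6.08.

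PD-1 is an inhibitory receptor engaged by PD-L1 and PD-L2. Pdcd1 had the fewest counts of the 5 members in tumour libraries, with 14, 9, 19 and 32 counts, or 11.48, 13.04, 11.42 and 30.42 CPM in libraries 1 to 4. Tumour-bearing spleens held 1, 2, 0 and 0 counts and healthy spleens 1, 1 and 0. Every spleen library was under its own floor, and tumour library 4 stood above the other three tumour libraries. The tumour mean was 16.59 ± 9.25 CPM (SD, n = 4) against 0.4696 ± 0.561 in tumour-bearing spleen (SD, n = 4) and 0.692 ± 0.782 in healthy spleen (SD, n = 3). The pooled ratio to tumour-bearing spleen was 34.3 (interval 11.3 to 170, from 74 against 3 counts, edgeR adjusted p = 9.52e-06). The pooled ratio to healthy spleen was 29.8 (interval 7.97 to 251, from 74 against 2 counts, edgeR adjusted p = 9.47e-05). With 5 counts in all 7 spleen libraries, no fold between the spleen groups is given. The fitted log2 differences were 4.88 against tumour-bearing spleen, or 5.72 without its replicate 2, and 4.70 against healthy spleen, or 5.30 without its replicate 1. Against tumour-bearing spleen replicates 1 and 2 alone the fit gave 3.94, and against replicates 3 and 4 alone 7.43.

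**Figure D2:**
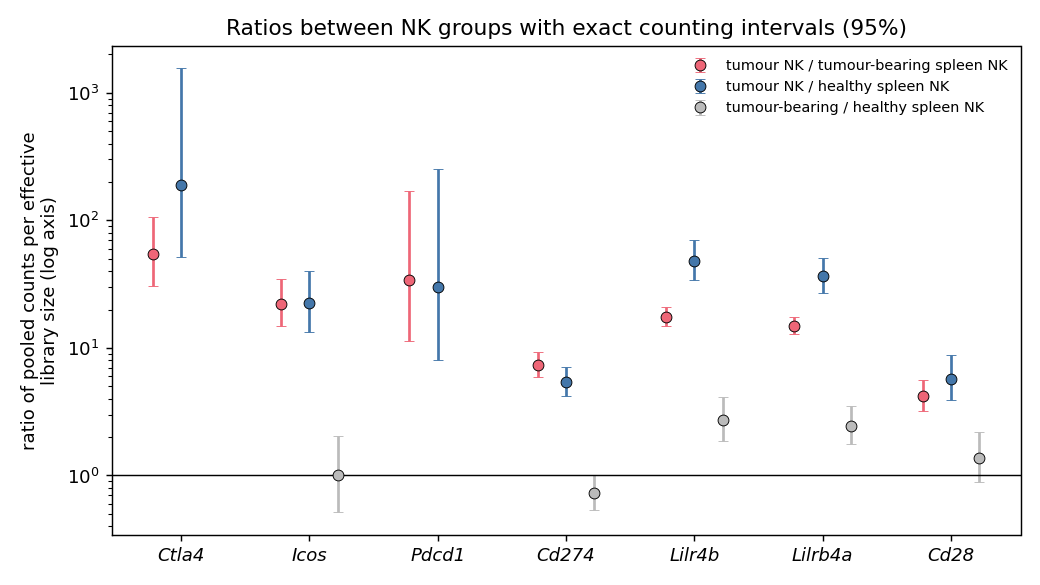
Ratios of pooled counts per effective library size between NK groups on a log axis, with exact 95% counting intervals that leave out the spread between libraries. Red and blue points, tumour against each spleen group, lie above 1 with their intervals for all 7 genes, and the intervals are widest for Ctla4 and Pdcd1, which had few spleen counts. No point is drawn between the spleens for those 2 genes.

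PD-L1 is the ligand of PD-1, carried by many cell types. Cd274 was the member with the highest spleen levels relative to its tumour level. It stood at 147.6, 69.56, 83.58 and 110.3 CPM in tumour libraries 1 to 4, at 14.48, 16.75, 15.44 and 8.679 CPM in tumour-bearing spleens, and at 30.82, 18.19 and 14.86 CPM in healthy spleens. The lowest tumour library was above the highest spleen library, and the spleen groups overlapped. Means were 102.7 ± 34.3 CPM (SD, n = 4), 13.84 ± 3.56 (SD, n = 4) and 21.29 ± 8.42 (SD, n = 3). Tumour exceeded tumour-bearing spleen by 2.88 on the log2 scale (SE 0.261, 7.34-fold, edgeR adjusted p = 1.41e-07) and healthy spleen by 2.37 (SE 0.292, 5.18-fold, edgeR adjusted p = 6.08e-06). The log2 difference of tumour-bearing from healthy spleen was -0.50 (SE 0.332, edgeR adjusted p = 0.64). Over all alternatives that were run, the tumour difference of Cd274 from tumour-bearing spleen stayed between 2.65 and 3.02, the narrowest range of the 5 members.

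The Lilr4b level rose in tumour NK libraries together with that of Lilrb4a. Lilr4b stood at 463.2, 439.1, 376.4 and 438.3 CPM in tumour libraries 1 to 4. It stood at 44.21, 29.02, 8.75 and 20.25 CPM in tumour-bearing spleens, and at 21.57, 6.42 and 5.777 CPM in healthy spleens. Tumour libraries formed a tight group, while spleen libraries spread widely and overlapped between the spleen groups. Means were 429.2 ± 37.1 CPM in tumour (SD, n = 4), 25.56 ± 15 in tumour-bearing spleen (SD, n = 4) and 11.26 ± 8.94 in healthy spleen (SD, n = 3). Tumour was 4.11 higher on the log2 scale than tumour-bearing spleen (SE 0.386, 17.2-fold, edgeR adjusted p = 2.04e-05) and 5.52 higher than healthy spleen (SE 0.519, 45.9-fold, edgeR adjusted p = 1.99e-05). Against tumour-bearing spleen replicates 3 and 4 alone the difference was 4.92. Tumour-bearing spleen was 1.42 higher than healthy spleen (SE 0.589, edgeR adjusted p = 0.398), which is not called. Without tumour-bearing spleen replicate 3 that difference was 1.73 and called (edgeR adjusted p = 0.0434).

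Lilrb4a stood at 441, 466.6, 355.3 and 439.3 CPM in tumour libraries 1 to 4, a mean of 425.6 ± 48.4 (SD, n = 4). Its means were 28.86 ± 10.1 CPM in tumour-bearing spleen (SD, n = 4) and 16.17 ± 16.8 in healthy spleen (SD, n = 3). In healthy spleens the level was uneven, with replicate 1 at 35.44 CPM and the others at 4.815 and 8.253. Tumour was 3.90 higher than tumour-bearing spleen on the log2 scale (SE 0.379, edgeR adjusted p = 2.6e-05) and 5.09 higher than healthy spleen (SE 0.5, edgeR adjusted p = 2.74e-05). The healthy comparison gave 6.05 without healthy replicate 1 and 4.48 without healthy replicate 2. Between the spleens Lilrb4a differed by 1.19 (SE 0.554, edgeR adjusted p = 0.468), by 2.17 without healthy replicate 1, when it was called (edgeR adjusted p = 0.00226), and by 0.58 without healthy replicate 2 (edgeR adjusted p = 0.81).

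Lilr4b (chr10:51480612-51486329) and Lilrb4a (chr10:51490898-51496613, both GRCm38.p6) lie 4568 bases apart, and their transcripts resemble each other. Of the 50-base words in the last 500 bases of annotated Lilr4b transcripts, 23% also occur in Lilrb4a transcripts, and 28.6% of those of Lilrb4a occur in Lilr4b. How the counting treated reads that match both genes is not given in the sources used here, so the division between the genes is uncertain. Lilr4b took 51.2%, 48.5%, 51.4% and 49.9% of the counts of both genes in tumour libraries 1 to 4, and 34.7% to 57.1% in the spleen libraries. The sum of both does not depend on how the counted reads were divided between them. It would still change if reads that match both genes were left out or counted for each gene. That sum was 854.8 ± 83 CPM in tumour (SD, n = 4), 54.41 ± 24.9 in tumour-bearing spleen (SD, n = 4) and 27.43 ± 25.7 in healthy spleen (SD, n = 3), ratios of 15.7 and 31.2. The healthy mean rested on replicate 1, at 57.02 CPM against 11.24 and 14.03 in replicates 2 and 3, and without it the ratio was 67.7, an alternative chosen after seeing the data.

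**Figure D3:**
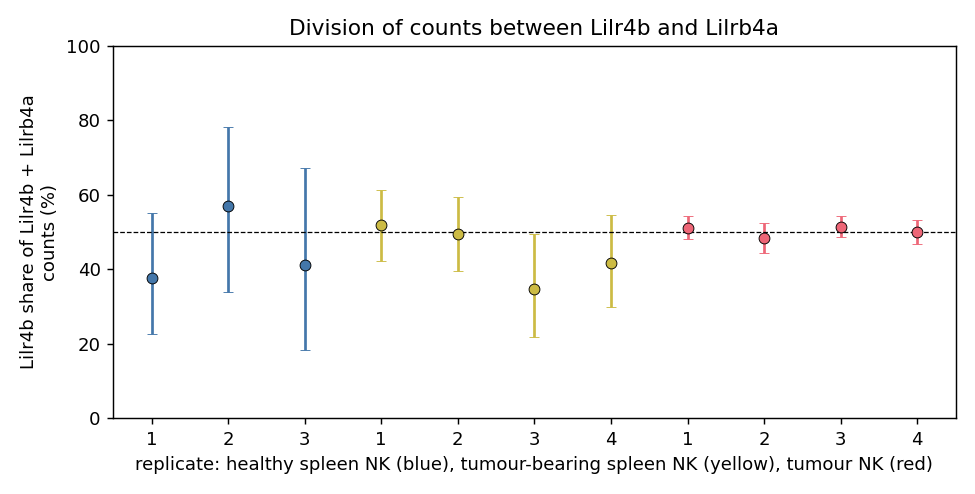
Share of the summed Lilr4b and Lilrb4a counts that was assigned to Lilr4b in each NK library, in percent, with exact Clopper-Pearson 95% intervals for counting error. The tumour libraries (red) lie between 48.5% and 51.4%, and the spleen libraries (blue, yellow) have wider intervals because they hold few counts.

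Within each spleen group, the libraries set apart by the second principal component carried more Icos and Lilr4b. For Lilr4b the tumour-bearing replicates 1 and 2 held 44.21 and 29.02 CPM, and replicates 3 and 4 held 8.75 and 20.25. Ctla4 had this order in tumour-bearing spleens, with 5.336 and 2.233 CPM against 0 and 0.7232. In healthy spleens it had 2 counts in all, too few for an order, and Pdcd1 was under its floor in every spleen library. Cd274 had this order in healthy spleens only, since in tumour-bearing spleens its replicates 1 and 3, at 14.48 and 15.44 CPM, were out of that order. This is a description with no test, and whatever sets these libraries apart was not tested.

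Of the 14 genes of the CD28 and B7 family list, 8 were listed in the NK table and all 8 were tested. In each tumour comparison 5 were called higher and none lower, namely Cd28, Ctla4, Icos, Pdcd1 and Cd274, so 4 of the 5 are the members themselves. Over all genes 15.8% were called higher and 13.2% lower against tumour-bearing spleen, and 16.5% and 14.0% against healthy spleen. Ctla4, Icos and Pdcd1 were tested only because of their tumour counts, so those shares do not measure how unusual the family count is. The family median log2 difference from tumour-bearing spleen was 2.43, against 0.0014 over all genes. The members made up 4 of the 8 tested genes, so that median is largely theirs and does not show a rise of the whole family. CD28 is the costimulatory receptor with which CTLA-4 competes. Cd28 stood at 22.95, 47.82, 75.16 and 26.62 CPM in tumour libraries 1 to 4, at 15.24, 13.95, 8.75 and 6.509 in tumour-bearing spleens, and at 13.87, 4.815 and 9.904 in healthy spleens. The groups did not overlap, but tumour libraries 1 and 4 lay not far above the highest spleen library. Tumour was 1.98 higher than tumour-bearing spleen (SE 0.405, edgeR adjusted p = 0.00229) and 2.37 higher than healthy spleen (SE 0.498, edgeR adjusted p = 0.0026). The exact permutation test for the healthy comparison gave p = 0.0857. Against tumour-bearing spleen replicates 1 and 2 alone the difference was 1.60 and not called (edgeR adjusted p = 0.0711), nor was it called when a change past 2-fold was required (adjusted p = 0.0792). Icosl, the ligand of ICOS, differed by 0.05 between tumour and tumour-bearing spleen (SE 0.262, edgeR adjusted p = 0.998). Vsir, an inhibitory B7 relative, differed by 0.37 (SE 0.223, edgeR adjusted p = 0.233), and Tnfrsf14, the receptor partner of BTLA, by -0.24 (SE 0.501, edgeR adjusted p = 0.763). None of these 3 was called in any comparison.

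In the genome Cd28, Ctla4 and Icos stand side by side on chromosome 1 in GRCm38.p6, with 135665 bases between Cd28 and Ctla4 (chr1:60909025-60915832) and 44940 between Ctla4 and Icos (chr1:60960773-61000322). All 3 were called higher in tumour. Raph1, the next gene beside Cd28, was at 29.22 ± 5.65 CPM in tumour and 30.42 ± 8.57 in tumour-bearing spleen (SD, n = 4 each), a log2 difference of -0.05 (edgeR adjusted p = 0.883). Near Pdcd1 (chr1:94038305-94052553), Fam174a and St8sia4 differed by 0.13 and 0.84 on the log2 scale (edgeR adjusted p = 0.606 and 0.226). Cd274 (chr19:29362107-29388095) differed from that pattern. Its neighbour Plgrkt, a plasminogen receptor, was 0.80 higher than in tumour-bearing spleen (SE 0.153, edgeR adjusted p = 0.00058), and Ric1, a gene for a Golgi trafficking protein, was 2.08 higher (SE 0.413, edgeR adjusted p = 0.000761). Against healthy spleen Ric1 was called again (1.88, edgeR adjusted p = 0.00508) and Plgrkt was not (0.44, edgeR adjusted p = 0.0549). Ascc3, beside Lilr4b, was not called (0.37, edgeR adjusted p = 0.263).

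Among receptors related to Lilr4b (the LILR, CD300, CD200 receptor and SIRP list), 7 of 19 were listed and tested. In tumour against tumour-bearing spleen 4 were called higher and 1 lower, beside 15.8% and 13.2% of all genes. Against healthy spleen 5 were called higher and 1 lower, beside 16.5% and 14.0% of all genes. The 5 became 3 without healthy replicate 2 or 3, and 3 with a replicate block on the libraries with shared numbers. Besides the Lilr4b and Lilrb4a genes, Cd200r1, an inhibitory receptor for CD200, was 1.58 higher than in tumour-bearing spleen (SE 0.412, edgeR adjusted p = 0.00688), with overlapping groups. Cd47, the don't-eat-me ligand of SIRP-alpha, was 0.42 higher (SE 0.142, edgeR adjusted p = 0.0306). That call was lost with upper-quartile factors (adjusted p = 0.0939), with library totals (0.129), and when any of 6 libraries was left out: tumour-bearing spleen replicates 3 (0.125) or 4 (0.0983) or any tumour replicate (0.0512 to 0.0688). Cd47 was also not called against tumour-bearing spleen replicates 1 and 2 alone (edgeR adjusted p = 0.276). Fcgr2b, the inhibitory Fc receptor, moved the other way, from 44.82 ± 10.6 CPM in tumour-bearing spleen to 14.89 ± 2.15 in tumour (SD, n = 4 each), and fell by 1.61 on the log2 scale (SE 0.251, edgeR adjusted p = 6.6e-05). The list median was 0.423 against tumour-bearing spleen.

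Other inhibitory receptors of NK cells were called in both directions. Of 13 tested (of 19 on the list), 2 were called higher and 2 lower against tumour-bearing spleen, near the 15.8% and 13.2% of all genes. The median there was 0.0161. Pdcd4, among the genes tested, does not encode a receptor and was not called in any comparison. Against healthy spleen 4 were called higher and 3 lower, beside 16.5% and 14.0% of all genes. Against tumour-bearing spleen replicates 3 and 4 alone 6 were called higher, and against replicates 1 and 2 alone 5 lower. The lower count was 1 without tumour-bearing spleen replicate 1 or tumour replicate 3, or with the replicate block. Against healthy spleen 2 were called higher without healthy replicate 3, and 1 lower without healthy replicate 2 or with the replicate block. Tigit, a receptor for nectin-family ligands, stood at 55.67 ± 9.74 CPM in tumour (SD, n = 4), 22.99 ± 3.93 in tumour-bearing spleen (SD, n = 4) and 4.307 ± 1.84 in healthy spleen (SD, n = 3). Tigit was also called between the spleens, by 2.48 (SE 0.333, edgeR adjusted p = 0.00032). Its log2 difference was 1.26 from tumour to tumour-bearing spleen (edgeR adjusted p = 0.000102). Cd96, which shares ligands with TIGIT, was 0.58 higher (SE 0.14, edgeR adjusted p = 0.00405). Klrg1, a receptor of mature NK cells, went from 553.8 ± 62.3 to 179.3 ± 29.6 CPM (SD, n = 4 each) and fell by 1.62 on the log2 scale (SE 0.143, edgeR adjusted p = 5.4e-08). Cd160 fell by 1.27 (SE 0.394, edgeR adjusted p = 0.0206), a call lost without tumour-bearing spleen replicate 1 (adjusted p = 0.0562) or tumour replicates 2 (0.0529) or 3 (0.0628). Lag3, an inhibitory receptor for MHC class II, differed by 0.02 from tumour-bearing spleen (SE 0.543, edgeR adjusted p = 0.988). Lag3 was called higher than in healthy spleen (3.19, SE 0.896, edgeR adjusted p = 0.0223), but not when healthy replicate 1 (adjusted p = 0.0549), 2 (0.0915) or 3 (0.0644) was left out.

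Costimulatory receptors outside the CD28 family gave 4 higher and 1 lower of 11 tested (13 on the list) against tumour-bearing spleen, with a median of 0.609. Over all genes 15.8% were called higher and 13.2% lower there. Il2ra, the high-affinity subunit of the interleukin-2 receptor, had 29, 15, 31 and 42 counts in tumour libraries 1 to 4 and none in any tumour-bearing spleen library. Taking 3 counts over that group as the floor, Il2ra was at least 54.2-fold higher in tumour (edgeR adjusted p = 2.85e-07). Healthy spleens held 2 Il2ra counts in all, so Il2ra too was tested only because of its tumour counts. The shares over all genes therefore do not measure how unusual its call is. Tnfrsf1b (TNF receptor) was 1.87 higher (SE 0.265, edgeR adjusted p = 2.19e-05), Tnfrsf9 (4-1BB) 1.56 higher (SE 0.152, edgeR adjusted p = 1.87e-07) and Tnfrsf18 (GITR) 1.00 higher (SE 0.13, edgeR adjusted p = 8.14e-06). Tnfrsf9 was also called between the spleens (1.91, edgeR adjusted p = 2.59e-05). Tnfrsf4 (OX40) fell by 1.21 (SE 0.328, edgeR adjusted p = 0.0092), a call lost against tumour-bearing spleen replicates 1 and 2 alone (adjusted p = 0.161).

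Genes that carry the signals of these receptors were called in both directions. Of 24 tested (27 on the list), 3 were called higher and 6 lower against tumour-bearing spleen, with a median of -0.0785, and 2 higher and 5 lower against healthy spleen. Over all genes 15.8% were called higher and 13.2% lower in the first comparison, and 16.5% and 14.0% in the second. The counts of this list were not tested against those shares. In the second comparison 8 were called lower with library totals, with upper-quartile factors or without healthy replicate 1, but 3 without healthy replicate 2, and 2 without healthy replicate 3 or with the replicate block. The higher count there was 1 without healthy replicate 2 or 3, or with library totals. Pik3r1, the regulatory subunit of the kinase that ICOS engages, was 0.83 higher than in tumour-bearing spleen (SE 0.175, edgeR adjusted p = 0.00128). Inpp5d, the lipid phosphatase SHIP-1 that inhibitory receptors recruit, was 0.51 higher (SE 0.12, edgeR adjusted p = 0.00336). Ppp2ca, the catalytic subunit of a phosphatase that CTLA-4 binds, was 0.56 higher (SE 0.165, edgeR adjusted p = 0.0151), a call lost with library totals (adjusted p = 0.11) and without tumour-bearing spleen replicates 3 (0.0661) or 4 (0.055) or tumour replicate 2 (0.0583). Against tumour-bearing spleen replicates 1 and 2 alone Ppp2ca was not called either (edgeR adjusted p = 0.128). The kinase gene Syk fell by 0.83 (SE 0.152, edgeR adjusted p = 0.000365), the diacylglycerol kinase gene Dgkz by 0.82 (SE 0.166, edgeR adjusted p = 0.000898) and Csk, which restrains Src-family kinases, by 0.58 (SE 0.147, edgeR adjusted p = 0.00532).

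**Figure D4:**
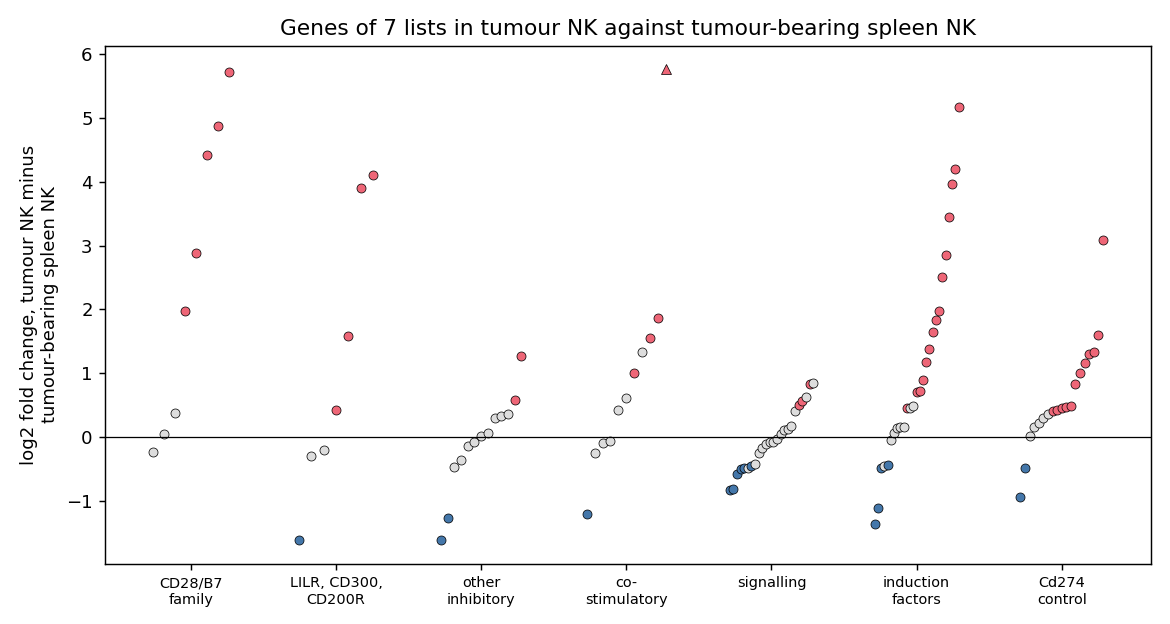
Log2 fold change of each tested gene of 7 lists, tumour NK minus tumour-bearing spleen NK, ordered by size within a list. Red points were called higher, blue lower and grey not called at an adjusted p under 0.05, and the triangle is Il2ra at its lower bound of 5.76. The CD28 and B7 family has 5 red points, all members except Cd28, and no blue point, whereas the signalling list has 3 red and 6 blue.

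Transcription factors known to act on checkpoint genes were mostly called higher in tumour. Of 27 tested (32 on the list), 15 were called higher and 4 lower against tumour-bearing spleen, with a median of 0.704, and 16 higher and 1 lower against healthy spleen. The shares over all genes were 15.8% and 13.2% in the first comparison and 16.5% and 14.0% in the second. Against tumour-bearing spleen replicates 3 and 4 alone 2 were called lower. Fosb, a subunit of AP-1, went from 13.14 ± 8.58 to 492 ± 59.5 CPM (SD, n = 4 each) and rose by 5.17 on the log2 scale (SE 0.398, edgeR adjusted p = 3.39e-06). Fosl2, another AP-1 subunit, rose by 4.20 (SE 0.576, edgeR adjusted p = 0.000644). The nuclear receptor genes Nr4a3 and Nr4a2, which activation through antigen receptors induces in lymphocytes, rose by 3.96 (SE 0.297, edgeR adjusted p = 6e-07) and 3.45 (SE 0.378, edgeR adjusted p = 7.52e-05). Several of these are immediate-early genes, which tissue handling can also induce, and the part of the digestion cannot be told apart from that of the tumour. Prdm1 (Blimp-1) fell by 1.12 (SE 0.24, edgeR adjusted p = 0.00151) and Tbx21 (T-bet) by 0.50 (SE 0.143, edgeR adjusted p = 0.0135). Egr3 fell by 1.37 (SE 0.376, edgeR adjusted p = 0.0099), a call lost without tumour-bearing spleen replicate 2 (adjusted p = 0.0523). That call was also lost against tumour-bearing spleen replicates 3 and 4 alone (edgeR adjusted p = 0.106). Between the spleens Egr3 and Egr2 were called higher with the tumour, by 2.69 and 2.17 (edgeR adjusted p = 0.0052 and 0.00337), calls lost without healthy replicate 2 (adjusted p = 0.0929 and 0.0523).

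Genes that control Cd274 were mostly called higher. Of 19 tested (22 on the list), 12 were called higher and 2 lower against tumour-bearing spleen, with a median of 0.453, and 11 higher and 2 lower against healthy spleen. The shares over all genes were 15.8% and 13.2% in the first comparison and 16.5% and 14.0% in the second. Of the 2 lower than in healthy spleen 1 was left without healthy replicates 2 or 3 or tumour replicates 2, 3 or 4. Socs3, a feedback inhibitor of JAK signalling, rose by 3.09 on the log2 scale (SE 0.174, edgeR adjusted p = 1.16e-10). Stat3 rose by 1.60 (SE 0.14, edgeR adjusted p = 4.73e-08), Ifngr1, the ligand-binding chain of the interferon-gamma receptor, by 1.33 (SE 0.154, edgeR adjusted p = 1.88e-06), and the hypoxia factor gene Hif1a by 1.30 (SE 0.272, edgeR adjusted p = 0.00136). Tyk2, a kinase of the type I interferon receptor, fell by 0.94 (SE 0.141, edgeR adjusted p = 4e-05). Irf2 fell by 0.49 (SE 0.158, edgeR adjusted p = 0.0261), a call lost without tumour-bearing spleen replicate 3 (adjusted p = 0.0561) or tumour replicates 3 (0.06) or 4 (0.059). Many of these changes were small: past a 2-fold minimum, 2 of the 12 higher calls were left.

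Over the 11 NK libraries the genes with the pattern most like each member were found by Pearson's r of log2 CPM. The libraries form a tumour and a spleen cluster, and r mostly reflects the step between them, so that 282 to 460 genes reached 0.9 for a given member. For Ctla4 the closest genes were Gzmc (0.994), Upp1 (0.994) and Ifitm1 (0.993). For Icos they were Ccr7 (0.991), Zc3hav1 (0.99) and Fosl2 (0.988). For Pdcd1 they were Ablim1 (0.984), Ifitm1 (0.979) and Prnp (0.978). For Lilr4b they were Gzmc (0.996), Rnf19b (0.996) and Ndfip1 (0.992), and for Cd274 Rnf149 (0.976), Dhx40 (0.976) and Adgrg3 (0.972). Among the members, r was lowest between Lilr4b and Cd274 (0.891) and highest between Ctla4 and Lilr4b (0.988).

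Markers of other cells were read in the same libraries, although the sort had gated out CD3, CD14, CD31, GFP and EPCAM. Of 18 T-cell markers 8 were listed, and Cd3e, Cd8a, Trac, Trbc1, Trbc2 and Foxp3 were among those not in the NK table. The listed T-cell genes, which include Cd28 and Il2ra, summed to 222.5 to 282.3 CPM of library totals in healthy spleens, 262.3 to 347.3 in tumour-bearing spleens and 361.5 to 431.8 in tumours. Of the 6 tested, Cd28, Il2ra and Tcf7 were called higher in tumour than in tumour-bearing spleen, and Cd3d lower. Tcf7, a transcription factor gene, was at 261.5 ± 17.1 CPM in tumour against 142.1 ± 26 (SD, n = 4 each). Cd3d, a chain of the T-cell receptor complex, was at 49.84 ± 13.9 against 80.23 ± 19.1 (SD, n = 4 each), but was called higher in tumour than in healthy spleen (28.07 ± 9.11 CPM, SD, n = 3). Of 15 macrophage and monocyte markers 11 were listed, with sums of 1204 to 1778, 810.9 to 1476 and 1495 to 1793 CPM in the same order of groups. Most of these sums came from Ccr2 and Ly6c2, at 817.2 ± 207 and 816.4 ± 170 CPM in tumour and 390.4 ± 273 and 771.7 ± 138 in tumour-bearing spleen (SD, n = 4 each). A core of 7 of the genes, chosen after their values were seen (Lyz2, Csf1r, C1qa, C1qb, C1qc, Cd14 and Apoe), summed to 26.13 to 209.9 CPM in tumours and 5.36 to 15.77 in spleens, and so was higher in every tumour library. Lyz2, C1qa and Csf1r, named after their values were seen, were highest in tumour replicate 3, at 40.28, 23.45 and 7.215 CPM. In the other tumour libraries Lyz2 did not pass 7.245 CPM, C1qa 4.919 or Csf1r 1.449. Csf1r was at 0 in all spleen libraries. Lilr4b, which myeloid cells also express, was lowest of the 4 tumour libraries in that replicate (376.4 CPM). Cd28 and Lag3 were highest there, at 75.16 and 53.51 CPM. The order among the 4 tumour libraries does not bear on the difference between tumour and spleen. Without tumour replicate 3 all 5 members were still called higher in both tumour comparisons.

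Of 12 neutrophil markers 6 were listed, summing to 2.253 to 8.934 CPM in healthy spleens, 1.396 to 14.74 in tumour-bearing spleens and 62.37 to 161.4 in tumours. The highest sum was in tumour replicate 2, in which Cd274 was at its lowest tumour level (69.56 CPM), an order within tumours that does not bear on the difference from spleen. Innate lymphoid cells of group 1, which share NKp46 with NK cells, were also read. Of 10 such markers 9 were listed and 8 tested, of which 6 were called higher and none lower in both tumour comparisons. Over all genes 15.8% were called higher against tumour-bearing spleen and 16.5% against healthy spleen. Cxcr6 was 2.70 and Tnfsf10 2.42 higher on the log2 scale than in tumour-bearing spleen (edgeR adjusted p = 1.33e-06 and 1.67e-06). Of 11 epithelial markers only Cdh1 and Epcam were listed, and they summed to 25.02 to 50.96 CPM in tumours and 0 to 3.573 in spleens. Cdh1, the gene of E-cadherin, was at 41.98 ± 10.4 CPM in tumour and 1.13 ± 1.3 in tumour-bearing spleen (SD, n = 4 each), a log2 difference of 5.13 (edgeR adjusted p = 6.54e-07). Cdh1 too was tested only because of its tumour counts. The listed B-cell (2 of 11), fibroblast (3 of 12) and endothelial (1 of 10) markers also summed higher in every tumour library than in any spleen library. Their ranges were 47.72 to 98.44 CPM against 11.83 to 41.18 for B-cell markers, 697.6 to 857.9 against 196.5 to 515.7 for fibroblast markers and 130.5 to 184.6 against 48.24 to 93.04 for Pecam1. The B-cell genes were Cd79b and Cd74, and the fibroblast genes Col1a2, Col3a1 and Thy1. Col1a2 and Thy1 were called higher than in tumour-bearing spleen, but against healthy spleen only Thy1 was. Thy1 was also called higher between the spleens, and Col3a1 and Cd79b were not tested. Col1a1, Dcn, Pdgfra, Pdgfrb, Fap and Postn were not in the NK table. These sums cover fewer genes than the sCAF sums below and cannot be set against them. Sums of dendritic-cell markers (3 of 11 listed) overlapped, at 223.2 to 263.2 against 174 to 320.3. Of these genes Zbtb46 and Ccr7 were called higher in both tumour comparisons, and Itgax lower than in tumour-bearing spleen. Sums of mast-cell and basophil markers (3 of 11) were lower in tumours, at 247.2 to 335.3 against 628.9 to 1006. The 2 tested went opposite ways, with Kit called higher and Cma1 lower in both tumour comparisons. The part of any of these cells in the members' levels was not tested.

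Cd274 was also present in all 3 sCAF libraries. It had 112, 35 and 26 counts, or 50.21, 26.55 and 19.52 CPM of library totals in replicates 1 to 3, with 95% counting intervals of 41.3 to 60.4, 18.5 to 36.9 and 12.8 to 28.6. Replicate 1 was the highest, 2.57-fold above replicate 3, and its interval did not overlap the others. The mean was 32.1 ± 16.1 CPM (SD, n = 3). On the same scale the tumour NK libraries stood at 136.9, 67.37, 75.59 and 101 CPM, all above the sCAF libraries. The tables list different genes and were made separately, so this is a side by side reading with no test. Other B7 members in sCAF were Cd276 (B7-H3) at 78.31 ± 7.14 CPM, Vsir at 10.12 ± 1.56 and Icosl at 0.65 ± 0.771 (SD, n = 3 each). Lilr4b had 4, 4 and 1 counts there. Ctla4, Icos, Pdcd1, Pdcd1lg2, Cd80 and Cd86 were not among the genes of the sCAF table.

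**Figure D5:**
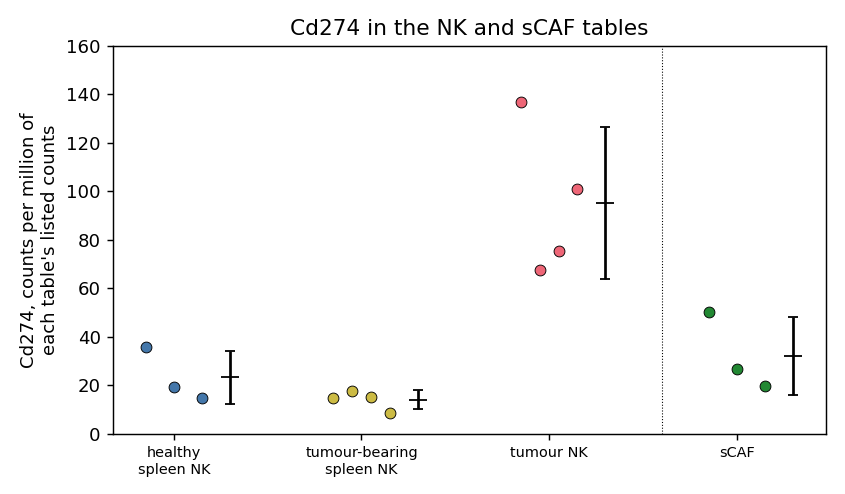
Cd274 in CPM of each table's listed counts, on a linear axis from 0, with a point for each library and the mean and SD beside them. The dotted line separates the NK table from the sCAF table, and the 3 sCAF libraries, at 19.52 to 50.21, lie below the 4 tumour NK libraries, at 67.37 to 136.9.

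The label of the sCAF libraries was checked against marker genes. All 12 fibroblast markers were listed and summed to 524.6 to 1412 CPM, with Col1a1 at 67.2 ± 18.7 and Col3a1 at 196.6 ± 105 CPM (SD, n = 3 each). Lum, Fap and Acta2 were near their floors, at 1.052 ± 0.395, 1.158 ± 0.98 and 3.312 ± 0.423 CPM (SD, n = 3 each), and Pdpn, against which the cells were sorted, was at 2.056 ± 1.5. The 11 epithelial markers summed to 4950 to 5999 CPM, led by Krt18 at 2515 ± 415 and Wfdc2 at 1855 ± 193 (SD, n = 3 each). Krt8 was at 760.1 ± 67.8 and Cldn4 at 206.6 ± 87.3 CPM (SD, n = 3 each). The rest of the list was low. Krt19, Cdh1, Epcam and Krt14 were at 31.46 ± 11.9, 22.5 ± 16.2, 19.31 ± 11.7 and 18.88 ± 15.9 CPM (SD, n = 3 each). Cldn3 and Cldn7 were at 5.34 ± 5.29 and 2.917 ± 2.29 (SD, n = 3 each), and Krt5 was at 0 in all 3 libraries. The neutrophil list summed to 1371 to 2050 CPM, nearly all from Lcn2 (1315 ± 215) and Mmp9 (302.9 ± 164). The neutrophil genes S100a8 and S100a9 were at 1.71 ± 1.18 and 1.765 ± 1.91 CPM (SD, n = 3 each), and Ly6g, Cxcr2, Mmp8 and Camp were at 0 in all 3 libraries. Marker sums ran both with and against Cd274, which was highest in replicate 1 and lowest in replicate 3. From replicates 1 to 3 the fibroblast sum was 524.6, 1001 and 1412 CPM and the neutrophil sum 1371, 1449 and 2050, whereas the B-cell sum was 1769, 1204 and 524.8 and the endothelial sum 340.3, 311.1 and 268.8. The B-cell gene Cd79b was at 0 in all 3. In replicate 1 the dendritic-cell sum was the highest of the 3 libraries (636.6 CPM) and the epithelial sum the lowest (4950). The sort had removed CD45+ and CD31+ cells. The part of any of these cells in the Cd274 counts of the sCAF libraries was not tested.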

How the data were processed

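The deposited tables hold raw counts per gene for 11 NK libraries and 3 sCAF libraries, made from 3′ mRNA libraries per the labels. bcl2fastq, STAR 2.4.2a, HTSeq and the mm10 build are named in the submitters' processing notes, without settings. Use of molecular identifiers, strand and multi-mapped reads is not given in the sources used here.

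NK counts were fitted in R 4.3.3 with edgeR 4.0.16 (TMM, its default filter on low counts, robust quasi-likelihood, 3 groups in a single fit, no replicate block), with Benjamini-Hochberg adjustment over the 8471 genes tested and calls at adjusted p under 0.05. The text gives mean CPM ± SD, log2 differences with SE, and ratios of pooled counts with exact 95% intervals. DESeq2 1.42.0, other scalings, filters and left-out libraries were alternatives. The fit was tested on simulated counts. sCAF counts were scaled to library totals (1318067 to 2230475) and not tested. Library totals count listed genes only.

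The members, gene lists and markers were chosen with earlier results of these data known. Outside the members and the CD28 and B7 family, named genes are those called with the largest differences in each list (up to 4 higher and 3 lower against tumour-bearing spleen, up to 2 each way otherwise), the 3 most alike genes and the gene neighbours; markers named after their values were seen are marked so. Between replicates of a group, counts differed by more than sampling noise for every pair. Sequences and coordinates are RefSeq's, on GRCm38.p6.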

Additional observations from a re-analysis of the deposited data

Results flagged for a closer look

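Of 95 sets of 4 values checked (a gene in the tumour or the tumour-bearing spleen libraries), 3 had a library far from the other three by Dixon's test, and chance alone gives about 1 in 20. Pdcd1 in tumour replicate 4 stood at 30.42 CPM, with the next library at 13.04. Without that library Pdcd1 was still called higher than in tumour-bearing spleen (4.42 on the log2 scale, edgeR adjusted p = 6.77e-05). Cd47 in tumour replicate 3 stood at 1020 CPM, with the next library at 963.1. Lag3 in tumour-bearing spleen replicate 4 stood at 52.8 CPM, with the next library at 20.07.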

How the results depend on the processing

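For the 5 members in both tumour comparisons, all 173 values from the alternatives kept their direction and their call, among them fits without each library in turn and DESeq2. Pdcd1 did not pass the stricter filter in that alternative and has no value there. Between the spleens 43 of 48 values of Icos, Lilr4b and Cd274 were unchanged in call and direction, and Ctla4 and Pdcd1, with too few counts, were not compared. Lilr4b was called there with the replicate block on the libraries of both groups with shared numbers (1.37, adjusted p = 0.0426) and without tumour-bearing spleen replicate 3 (1.73), and lay between 1.04 and 2.00 as each library was left out. Icos, near 0, changed sign without healthy replicate 1 (0.47) or tumour-bearing spleen replicates 3 (0.30) or 4 (0.28), uncalled each time, and ranged from -0.49 to 0.47 as each library was left out. Whether same-numbered libraries are paired is not given in the sources used here. Deviations of same-numbered tumour and tumour-bearing spleen libraries correlated at -0.0471, 0.288, 0.00249 and 0.211. Those of tumour and healthy spleen libraries correlated at -0.186, -0.195 and 0.0445, and those of the spleen groups at 0.501, -0.353 and 0.348. These values were not set against libraries of unlike number, so they cannot decide on a pairing.

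Counts of genes called over the whole table moved more. Against tumour-bearing spleen, 1338 higher and 1115 lower became 334 and 57 past a 2-fold minimum, and 1696 lower with library totals. Against healthy spleen, 1399 and 1183 became 862 and 605 with that replicate block (1266 and 1208 with only the libraries of both groups and no block), 385 and 90 past a 2-fold minimum, 2002 lower with library totals, and 782 to 1406 lower as each library was left out (fewest without healthy replicate 2). Between the spleens, 104 and 30 became 6 and 2 past a 2-fold minimum, 443 and 248 with the split side as a block in the spleen libraries (93 and 21 in those libraries with no block), 47 lower with library totals, and 35 to 100 higher and 7 to 25 lower as each library was left out (fewest without healthy replicate 2). With library totals the median of all genes moved to -0.12 and -0.181 in the tumour comparisons, and higher genes made up 37.7% and 32.8% of calls, not 54.5% and 54.2%, or 41.6% and 42.4% with upper-quartile factors. The cause was not tested. Low spleen counts limit the size, not the direction, of the Ctla4 and Pdcd1 differences.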
